A study of Mus musculus with 4 samples.

Results

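The genes described here are the 9 that build and rearrange the first antigen receptor of a developing B cell: Vpreb1, Vpreb2, Vpreb3 and Igll1 (surrogate light chain and its relative), Cd79a and Cd79b (the signalling pair), and Rag1, Rag2 and Dntt (recombination). They were taken by symbol, and all 9 were found among the 32285 genes of both matrices. The RNA and the CD24 antibody tags of single cells had been counted in 1 young mouse of 6 months and 1 old mouse of 24 months. Both animals were untreated and carried the INK-ATTAC transgene, in which a piece of the p16 promoter drives caspase 8 that a drug can switch on, so no animal without the transgene stood beside them. Marrow and digested bone of femurs and tibias had been depleted of cells with CD5, CD45R (B220), CD11b, Gr-1, 7-4 or Ter-119 and then sorted as CD45- living cells for mesenchymal cells. B220 is a marker of the B lineage itself, and the mRNA of CD45 (Ptprc) was found in 49.0% of young and 57.4% of old cells with several of the 9 genes. The share of these cells is a share of what the sort passed. How far the depletion and the sort set their number was not tested.

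A developing B cell first joins its heavy chain gene segments, which the RAG1 and RAG2 proteins cut and to which terminal deoxynucleotidyl transferase (Dntt) adds bases at the junctions. The new heavy chain is tested at the surface with a stand-in light chain made of VpreB and λ5 (Igll1), and the receptor signals through the CD79a and CD79b chains. Cells that pass this test divide, switch off the surrogate light chain and Dntt, and rearrange a light chain gene with the RAG proteins. CD24, the heat-stable antigen, is a surface marker of B cell precursors and also of erythroid precursors.

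The promoter windows of 5 members are shown because those of 2 genes, Vpreb1 and Vpreb2, are near copies over part of their length. All 5 also belong to genes that were found together in single cells. How well reads of Vpreb1 and Vpreb2 can be told apart was not tested. Each is 300 bases of RefSeq's GRCm38.p6, from 250 before to 50 after the start used for the gene, printed 5′ to 3′ on its strand. For Vpreb2 and Vpreb3 that start lies inside the span RefSeq gives for the gene, which begins at 17979445 and 75943024. An entry was found for 8 of the 9 members, not for Cd79b. Capitals mark CAGGTG, an E-box letter string, on either strand (in Igll1 it reads CACCTG), or in Vpreb3 the octamer ATTTGCAT of immunoglobulin promoters.
Vpreb1, chr16:16869206-16869505, minus strand: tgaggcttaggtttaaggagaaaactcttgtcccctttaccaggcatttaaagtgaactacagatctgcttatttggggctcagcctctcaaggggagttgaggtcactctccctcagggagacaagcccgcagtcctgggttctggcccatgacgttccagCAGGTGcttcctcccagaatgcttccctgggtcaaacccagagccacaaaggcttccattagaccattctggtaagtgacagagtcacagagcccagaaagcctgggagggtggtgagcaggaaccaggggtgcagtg
Vpreb2, chr16:17980315-17980614, plus strand: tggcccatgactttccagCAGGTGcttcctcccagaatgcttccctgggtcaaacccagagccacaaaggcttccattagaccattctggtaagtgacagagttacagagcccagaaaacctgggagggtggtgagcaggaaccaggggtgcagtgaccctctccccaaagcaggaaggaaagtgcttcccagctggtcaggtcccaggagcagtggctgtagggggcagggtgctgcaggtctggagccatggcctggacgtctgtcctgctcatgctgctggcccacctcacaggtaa
Igll1, chr16:16863936-16864235, minus strand: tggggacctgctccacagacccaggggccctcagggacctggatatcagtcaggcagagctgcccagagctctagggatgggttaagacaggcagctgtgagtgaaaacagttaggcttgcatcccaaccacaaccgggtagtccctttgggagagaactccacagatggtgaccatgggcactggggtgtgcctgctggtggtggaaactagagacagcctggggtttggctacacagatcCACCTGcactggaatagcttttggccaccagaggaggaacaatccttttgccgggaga
Rag1, chr2:101649483-101649782, minus strand: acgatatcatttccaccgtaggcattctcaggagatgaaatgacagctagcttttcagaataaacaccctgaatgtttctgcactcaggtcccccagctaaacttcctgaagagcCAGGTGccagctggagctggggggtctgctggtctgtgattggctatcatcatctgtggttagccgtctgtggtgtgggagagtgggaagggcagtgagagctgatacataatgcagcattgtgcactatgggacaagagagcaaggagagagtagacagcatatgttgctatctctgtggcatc
Vpreb3, chr10:75948050-75948349, plus strand: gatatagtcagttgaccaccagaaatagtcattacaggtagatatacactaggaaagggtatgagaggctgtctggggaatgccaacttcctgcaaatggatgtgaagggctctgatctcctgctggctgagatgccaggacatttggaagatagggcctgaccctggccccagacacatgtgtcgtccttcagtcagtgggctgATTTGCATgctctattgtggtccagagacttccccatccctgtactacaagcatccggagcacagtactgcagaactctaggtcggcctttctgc

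The Vpreb1 and Vpreb2 windows overlapped as copies with an offset of 144 bases: 153 of 156 aligned bases were the same and 3 differed. Vpreb1 and Igll1 lie close together on chromosome 16, and Vpreb2 lies elsewhere on that chromosome. Rag1 and Rag2 are neighbours on chromosome 2. CAGGTG stood in the windows of 5 of the 8 members (Cd79a, Igll1, Rag1, Vpreb1 and Vpreb2), and in 20.2% of all 32851 windows. The octamer stood only in the window of Vpreb3 among the 8, 45 bases before the start used, and in 1.74% of all windows. CCCNNGGG, an EBF-type string, was found in the window of Igll1 alone and in 13.7% of all windows, and TATAAA in none of the 8 and in 13.6% of all. These matches are letters in a window, chosen with the sequences in view, and no binding was measured.

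Of 11371 young and 6729 old barcodes, 10063 and 5607 were kept, those with at least 200 genes and at most 20% mitochondrial UMIs (a UMI, unique molecular identifier, is 1 counted molecule). The young library held 81076421 UMIs in kept barcodes and the old one 66702846, with medians of 6385 and 9711 per barcode, so the old cells were read more deeply. With 1 mouse per age, the values below carry 95% exact intervals that cover counting error only, and no test of age was made. Another mouse of the same age could differ by any amount. The libraries shared 19 kept barcode sequences, and 3 of those belonged to cells with 3 or more members in 1 of the libraries.

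The 9 genes were found together in a small group of cells. In the young mouse 382 barcodes (3.80%, interval 3.43 to 4.19%) held 3 or more of the 9 genes, and in the old mouse 54 (0.963%, 0.724 to 1.26%), a share 3.94 times higher in the young library. These barcodes were chosen by the same 9 genes, so a raised share of their UMIs is built in. They carried 95.03 to 98.1% of every member's UMIs in the young library. In the old library they carried 89.9% (Vpreb1) to 100% (Rag2) of the UMIs of 8 members, but 64.0% of those of Cd79b, since 18 old B-lineage-like cells with Cd79b as their only member held another 112 of its 567 UMIs. Most of the other barcodes with a member held 1 UMI of 1 gene.

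The share of barcodes in the B-lineage-like clusters went up with the number of members. Of young barcodes with exactly 1 member, 1.38% fell into these clusters, which were found from all genes except the 9, against 53.6% with exactly 2 and 99.2% with exactly 3. The old shares were 12.2%, 41.7% and 83.3%. The lowest rung was nearly always the same trio, since 113 of the 119 young cells with exactly 3 members held Vpreb3, Cd79a and Cd79b. Of the 84 young cells with 4 members, 32 held Rag1, 19 Vpreb1, 18 Igll1 and 16 Rag2. Vpreb1 and Igll1 were in 57 and 53 of the 73 cells with 5 members, where Rag1 was in 17 and Rag2 in 19. Among the 34 cells with 7 members Dntt was in 32, Vpreb2 in 19, Rag1 in 15 and Rag2 in 4. All 9 genes were found in 14 young and 2 old cells.

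**Figure D1:**
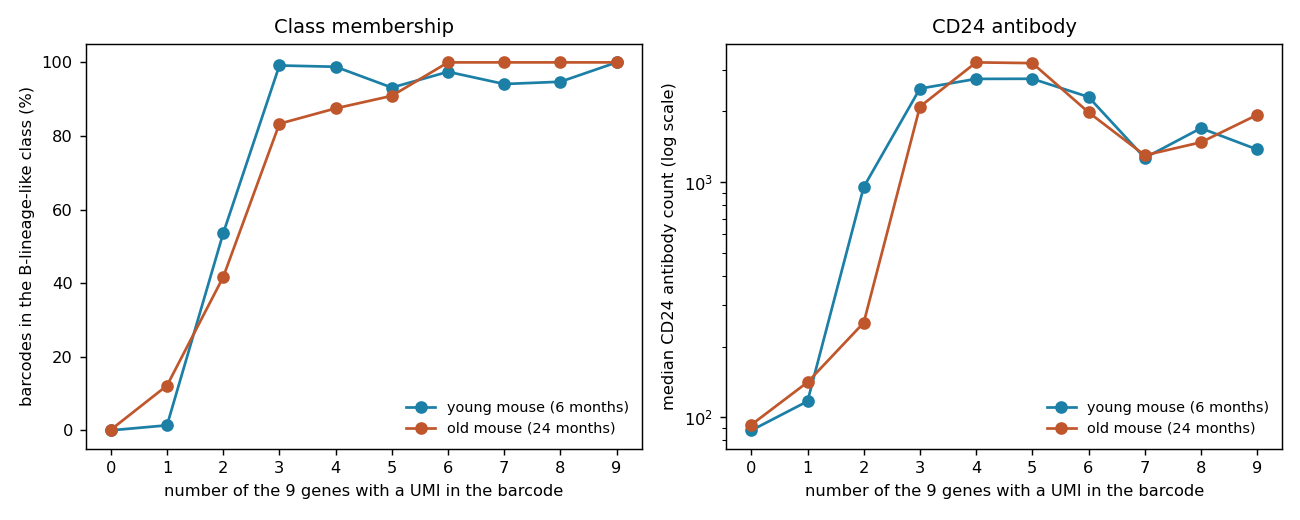
Kept barcodes by how many of the 9 genes had a UMI, young and old. The left panel gives the percent that fell into the B-lineage-like clusters and the right one the median CD24 antibody count on a log axis, which in the young library is 88 with no member and 2499 with 3.

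The cells with 3 or more members bore the B lineage's other genes. The clusters that were found without the 9 genes and called B-lineage-like from their markers held 371 of 382 young and 51 of 54 old cells. Of the 14 cells outside them, 4 young and 1 old were called as doublets. Il7r, the receptor for the growth factor of B cell precursors, was found in 83.5% of young and 81.5% of old cells with several members, against 0.382% and 0.162% of other barcodes. Pax5, the factor that commits cells to the lineage, was in 71.7% and 74.1%, against 0.300% and 0.0360%. The T cell genes Cd3e, Cd3g and Trbc2 had 0 UMIs in these cells of either library, and Trac had 2 UMIs in 1 young cell. Siglech, a marker of plasmacytoid dendritic cells, had 0 UMIs in the 54 old cells, which limits the share of cells with a UMI to 5.56%, and it had 0 in all other young barcodes as well. Of the genes of later B cells, Ms4a1 (CD20) was in 4 of 382 and 1 of 54 cells, against 0.0103% and 0.0540% of other barcodes. Spib, a transcription factor, was in 47.6% and 53.7%, and H2-Ab1, a class II chain, in 57.3% and 55.6%.

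Levels are given as CPM, the UMIs of a gene in every 1000000 UMIs of all kept barcodes of a library, so they depend on the share of B-lineage cells as well as on the RNA in each. Vpreb3, an endoplasmic reticulum protein that binds the heavy chain, stood at 99.9 CPM in the young (97.7 to 102) and 25.5 in the old library (24.3 to 26.7). Cd79a stood at 40.4 and 11.4, and Cd79b at 29.3 and 8.5. The signalling pair and Vpreb3 thus had the lowest old-to-young ratios with Rag2, 0.282, 0.290 and 0.255 against 0.310 for Rag2.

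The surrogate light chain genes and Dntt were nearer between the libraries. Vpreb1 stood at 21.6 CPM in the young and 9.21 in the old library, a ratio of 0.426 (0.388 to 0.468). Igll1 stood at 12.7 and 6.39, a ratio of 0.504 (0.449 to 0.565). Vpreb2 stood at 2.16 and 1.26, a ratio of 0.583 (0.444 to 0.761), and how well its reads were told from those of Vpreb1 was not tested. Dntt stood at 7.33 and 4.56, a ratio of 0.622 (0.540 to 0.716).

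The recombinase genes were sparse. Rag1 stood at 2.05 CPM in the young and 0.914 in the old library, a ratio of 0.447 (0.327 to 0.602), and Rag2 at 1.26 and 0.390 (ratio 0.310, 0.193 to 0.480). Taking a ratio below 0.5 as a call, 6 of the 9 members were called, against 3.79% of the 18765 genes with at least 10 UMIs. The median ratio over those genes was 0.985. Counted per kept barcode in place of per UMI, 4 of the 9 were below 0.5, against 1.83% of all genes. Rag1 at 0.447 was the last inside that limit and Igll1 at 0.504 the next outside, and the intervals of both reach across it.

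**Figure D2:**
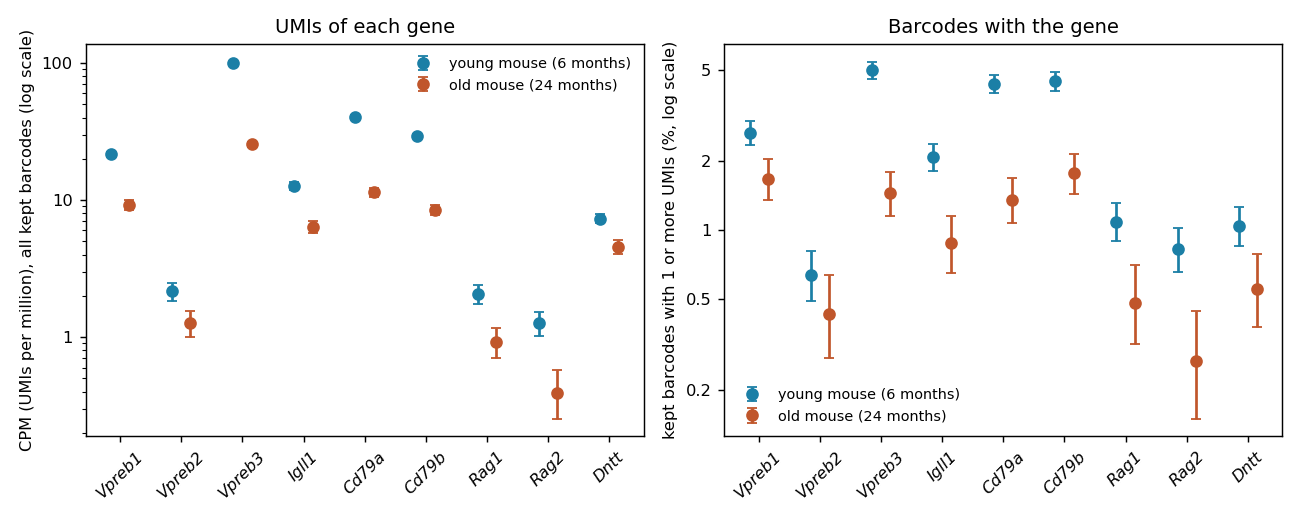
Left, level of each of the 9 genes in CPM over all kept barcodes, and right, share of kept barcodes with a UMI of the gene (percent), both on log axes, for the young and the old mouse, with exact 95% intervals for counting error. The old value lies below the young one for all 9 genes in both panels, and the gap is narrow for Vpreb2 and Dntt in the left panel.

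Within the cells that held 3 or more members, which were chosen by the same genes, the ratio lay above 1 for Dntt, Rag1 and the surrogate light chain genes. Dntt stood at 238 CPM in the young and 533 in the old cells, a ratio of 2.24 (1.94 to 2.58). Vpreb2 had a ratio of 2.01 (1.52 to 2.64), Igll1 of 1.79 (1.60 to 2.01), Rag1 of 1.60 (1.17 to 2.17) and Vpreb1 of 1.42 (1.29 to 1.56). The receptor chains did not share this: Cd79a had 0.983 (0.906 to 1.06), Vpreb3 0.895 (0.848 to 0.944) and Cd79b 0.678 (0.605 to 0.758). Rag2, with 98 young and 26 old UMIs, had 1.14 (0.707 to 1.76). None of the 9 was below 0.5, where 9.99% of the 10659 genes measured in these cells were, and Dntt and Vpreb2 were above 2, where 5.85% were. In cluster 20, the B-lineage-like cluster with fewer cell cycle UMIs, all 9 ratios were below 1. Among them were Dntt at 0.365 (0.310 to 0.429) and Rag1 at 0.231 (0.164 to 0.322). But 34 of its 67 old cells held 3 or more members against 195 of 210 young ones. Its old total also takes in the 18 cells with Cd79b alone, at a median of 58538 UMIs. Among its cells with 3 or more members, Dntt stood at 463 CPM (young) and 920 (old), Rag1 at 150 and 189, and Vpreb1 at 1358 and 1621. Vpreb2 and Igll1 were also higher in those old cells. Vpreb3, Cd79a and Cd79b were lower, and Rag2 was nearly equal (70.7 and 70.5). In cluster 21, the more cycling one, Dntt had a ratio of 1.81 (1.28 to 2.53) and Vpreb1 of 1.53 (1.23 to 1.88). In the cells with 3 or more members the median ratio over all genes measured was 0.943, and the 54 old cells come from 1 animal and were deeper, at a median of 8434 UMIs against 5116.

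The same shift was seen as a share of cells. Dntt was found in 78 of 382 young cells (20.4%, 16.5 to 24.8%) and in 23 of 54 old ones (42.6%, 29.2 to 56.8%). After every cell was thinned to 2000 UMIs, which leaves out 28 young and 2 old cells that were shallower, the shares were 17.0% and 36.7%. Vpreb1 was in 48.4% of young and 70.4% of old cells, and in 34.9% and 53.8% after thinning. Igll1 was in 46.6% and 74.1%, and in 33.4% and 51.3% after thinning. Rag1 went from 27.0% and 48.1% to 14.7% and 22.7%, a thinned difference near the level of a single UMI per cell.

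To see which cells these are, the cells with 3 or more members were divided by their own genes, into cells with Dntt (78 young, 23 old), cells with Vpreb1, Vpreb2 or Igll1 but no Dntt (134 and 20), and cells with neither (170 and 11). The members used for this division are not results. Cd79a was found in 93.6%, 99.3% and 100% of the 3 young sets and Vpreb3 in 96.2%, 100% and 100%. The rule of 3 or more members builds part of this in, since cells with neither could pass only through Vpreb3, Cd79a, Cd79b, Rag1 and Rag2. Cells with Dntt needed fewer of these, so the rise over the sets is not a result. Vpreb2, itself used in the division, was in 60.3% of young cells with Dntt and in 8.96% of those with a surrogate light chain gene alone.

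Rag1 had a dip in the middle set of the young mouse, with 55.1% (43.4 to 66.4%) of the cells with Dntt, 14.2% (8.76 to 21.3%) of the middle set and 24.1% (17.9 to 31.3%) of the cells with neither. In the old mouse the shares were 52.2%, 50% and 36.4%, over 23, 20 and 11 cells. Rag2 was in 32.1%, 22.4% and 14.1% of the young sets. Thinned to 2000 UMIs the young Rag1 shares were 29.8%, 8.20% and 13.0%. The middle set was the deepest in young cells, at a median of 6161 UMIs against 4548 and 4586. Cells with neither could pass only through Vpreb3, Cd79a, Cd79b, Rag1 and Rag2, so the rule also bears on their Rag1 and Rag2 shares.

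Genes outside the 9 went along with these sets. Igkc, the kappa light chain, was found in 15.4% of the young cells with Dntt (8.21 to 25.3%), 90.3% of the middle set and 100% of the cells with neither. Other young barcodes held it in 0.981%. In the old library the 3 shares were 43.5%, 90.0% and 100%, but 43.8% of all other old barcodes also held Igkc, so the old share in the cells with Dntt is no more than that background. Lef1, a transcription factor of early B cell precursors, was found in 91.0%, 44.8% and 28.2% of the young and 91.3%, 65.0% and 27.3% of the old sets. Cd74, the class II invariant chain, was in 1.28%, 43.3% and 57.6% of the young sets.

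The proliferation gene Mki67 was found in 42.3% of the young cells with Dntt, 76.9% of the middle set and 68.2% of the rest. CD24 differed too: the antibody count had a median of 1358 in the young cells with Dntt, 2866 in the middle set and 2564 in the rest. The old medians were 1326, 2900 and 2738. Cd24a, its gene, stood at 655, 1203 and 1306 CPM in the young sets, so that RNA and antibody were both lowest where Dntt was found. Cells of 1 mouse are not replicates, and these differences carry no test.

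**Figure D3:**
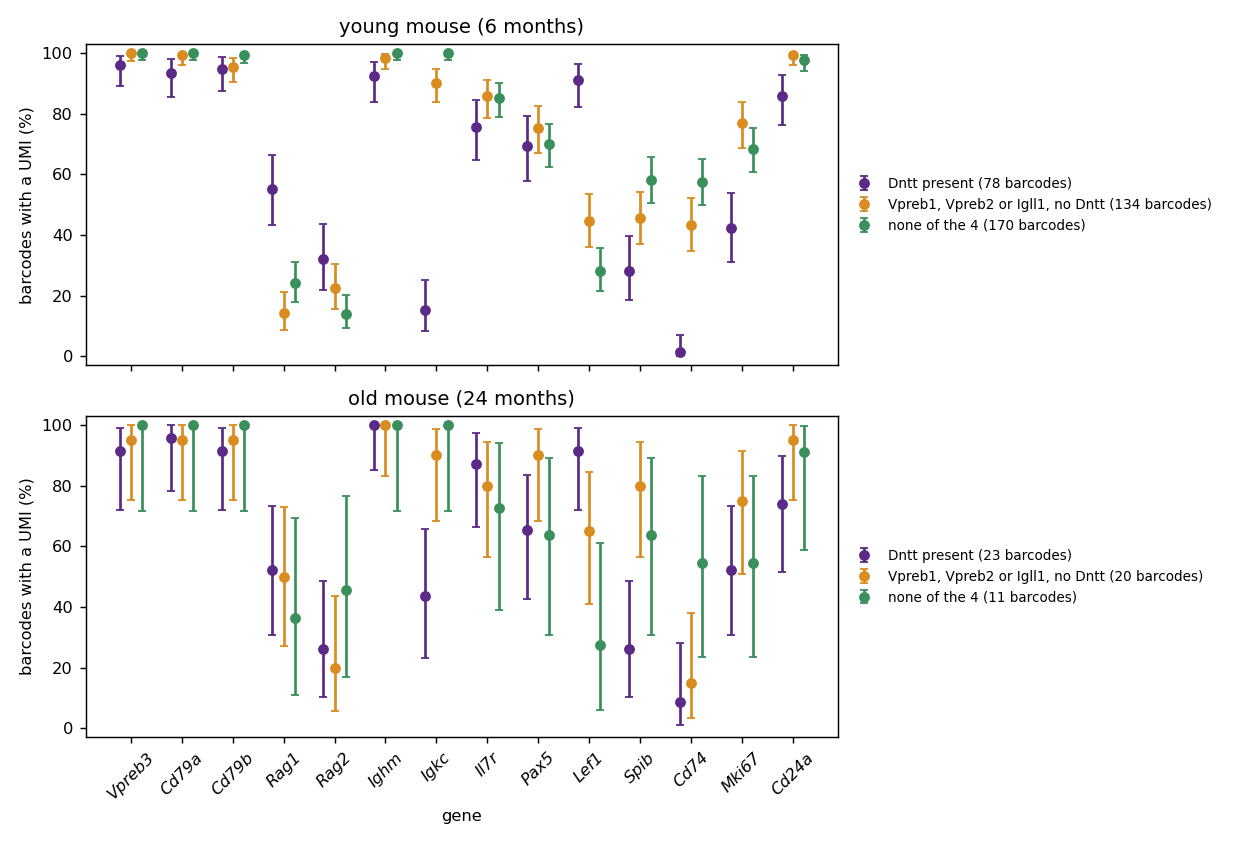
Share of cells with a UMI of each gene (percent, exact 95% intervals) in the cells with 3 or more members, divided by whether Dntt, a surrogate light chain gene only, or neither was found, young and old. Lef1 falls from 91.0% to 28.2% and Igkc rises from 15.4% to 100% over the 3 young sets.

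The division into clusters, made without the 9 genes, gave a view that was similar in part. The B-lineage-like cells fell into a cluster with fewer cell cycle UMIs (cluster 20) and a more cycling one (cluster 21). The 10 genes of a cell cycle list together stood at 1688 CPM in the young cells of the former with 3 or more members, and at 6685 in the latter. The former was not free of dividing cells, with Mki67 in 37.4% of its cells against 99.4%. In the same cells Rag1 was 6.91 times higher in the less cycling cluster of the young mouse (4.59 to 10.7) and 6.46 times in the old one (2.92 to 16.9). Vpreb1 was 4.24 and 3.40 times higher there, Dntt 4.16 and 4.68 times, and Vpreb2 5.16 and 2.34 times. Rag2 was 2.71 times higher in the young (1.76 to 4.23) and 2.41 in the old mouse, where the interval of 0.969 to 6.78 includes 1. Lef1 was 2.39 (young) and 1.95 (old) times higher in the less cycling cluster. Igkc was found in 70.3% of its young cells and in 90.9% of those of the more cycling one. By level, though, young Igkc was 1.185 times higher in the less cycling cluster (1.10 to 1.27), unlike in the 3 sets.

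The receptor chains differed little between these clusters. Cd79a was 1.52 and 1.49 times higher in the less cycling one, Vpreb3 1.28 and 1.18 times, and Cd79b 1.33 and 1.17 times. In the old mouse the interval for Cd79b, 0.944 to 1.45, includes 1. Of the cells with 3 or more members, 195 young and 34 old ones lay in the less cycling cluster and 176 and 17 in the more cycling one.

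Pairs that act as partners were not found together to the same degree. Cd79a and Cd79b, which form 1 dimer, were both present in 368 of the 520 young cells with either (70.8%). In the old library both were present in 53 of 122 (43.4%). Those 122 take in the 18 B-lineage-like cells with Cd79b as their only member, of which the young library had 2. In cells with several members, which were chosen by the members themselves, Cd79a was in 98.4% of young and 96.3% of old ones. Cd79b was in 97.1% and 94.4% of them. Vpreb1 and Igll1, the parts of the surrogate light chain, shared 152 of 324 young (46.9%) and 36 of 107 old cells (33.6%). Rag1 and Rag2, which work as a complex, shared 29 of 163 young (17.8%) and 8 of 34 old cells (23.5%). Rag1 was seen as 1 UMI in 74 of its 109 young and 13 of its 27 old cells, and Rag2 in 66 of 83 and 7 of 15, so the absence of the partner from a cell was not detectable at this depth.

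Vpreb2 was nearly always found with its copy, as 90.6% of its young and 87.5% of its old cells also held Vpreb1. Dntt and Vpreb2, which do not act together, shared 47 of 122 young (38.5%) and 16 of 39 old cells (41.0%). Thinned to 2000 UMIs, Vpreb1 and Igll1 shared 52.9% of young and 57.0% of old cells, Cd79a and Cd79b 71.5% and 59.1%, and Rag1 and Rag2 14.9% and 12.1%. The pairs share libraries and depth, and these shares carry no test.

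**Figure D4:**
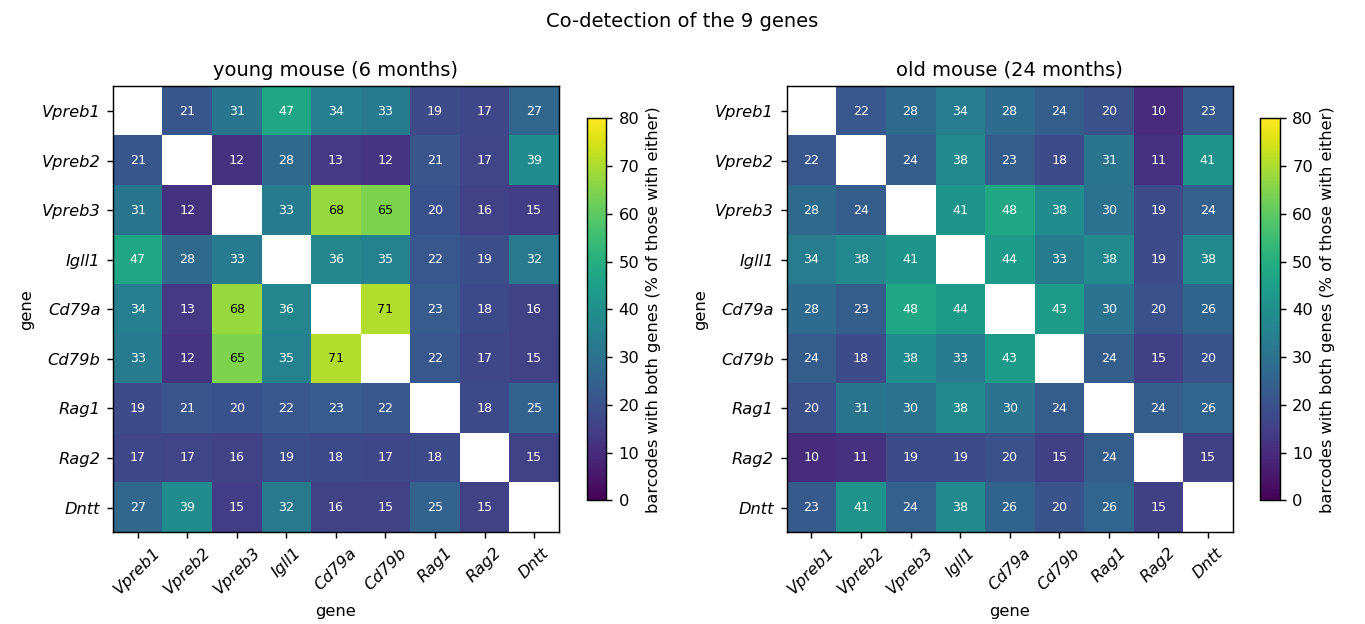
Share of cells with either gene that held both, for each pair of the 9 genes, young and old (percent, color scale). The block of Vpreb3, Cd79a and Cd79b stands out in the young library at 64.5 to 70.8%, while Rag1 and Rag2 share 17.8%.

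The genes whose cells overlapped most with those of each member, by the share of cells with either that held both (a Jaccard index, over all kept barcodes of both mice), fell into a set led by Mzb1, Il7r and Pax5 and a set led by Gm30948. For Cd79a the nearest gene was Mzb1, a chaperone of B cells, at 0.662, then Il7r at 0.650 and Pax5 at 0.569. Vpreb3 and Cd79b had Il7r and Mzb1 in front as well, at 0.592 and 0.591 and at 0.600 and 0.628. Dntt and Vpreb2 had another set of neighbours, with Gm30948 at 0.351 and 0.322, followed by Arpp21 (0.307 and 0.241), Bfsp2 (0.257 and 0.227) and Myl10 (0.235 and 0.272). Vpreb1, Igll1 and Rag1 had Mzb1 in front, at 0.349, 0.409 and 0.250, and Rag2 had its highest index, 0.213, with BC035044.

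Outside the B-lineage-like cells the members were far lower, though not equally so in every class. Stromal-like cells, which should lack these genes, held Vpreb3 in 1.31% of the young and 0.453% of the old barcodes, at median depths of 5160 and 8381 UMIs. The B-lineage-like cells, at medians of 4684 and 10243 UMIs, held it in 96.4% and 61.9%. Thinned to 2000 UMIs, 97.5% of young B-lineage-like cells and 0.538% of young stromal-like ones held it. Erythroid-like cells had CD24 counts as high as the B-lineage-like ones, with medians of 2796 and 2950, yet no member was found in more than 5 of the 361 young barcodes of that kind.

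Progenitor-like cells held Cd79b in 7.89% of the young and 9.29% of the old barcodes, but at medians of 25423 and 34839 UMIs. Thinned to 2000 UMIs those shares were 0.625% and 0.682%, against 0.250% and 0.0851% of stromal-like cells. In CPM, Cd79b stood at 3.38 (2.00 to 5.33) in old progenitor-like and 0.544 (0.235 to 1.07) in old stromal-like cells. Megakaryocyte-like cells held it in 5 of 70 young and 4 of 51 old barcodes, and in 0.941% and 1.43% after thinning. Neutrophil-like cells of the young library carried Vpreb1 at 45 CPM, in 4 of 259 barcodes. Of those 259, 3 held 3 or more members.

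The genes that work with the 9 were read from lists. Of 13 early B lineage genes, 10 stood over 2 times higher in the cells with 3 or more members than in other barcodes in both libraries, and of 11 genes of receptor signalling, 10. Blnk, the adaptor below CD79, was in 75.1% of young and 85.2% of old cells, against 0.733% and 0.738% of others. Of 13 genes of end joining and other partners of recombination, 5 passed that limit: Xrcc6, Lig4, Polm, Hmgb1 and Hmgb2. For these the young ratios were 14.97, 12.9, 9.63, 6.05 and 10.6. Polm is a polymerase related to Dntt, Lig4 a ligase and Xrcc6 a DNA end binding protein of end joining, while Hmgb1 and Hmgb2 assist the RAG proteins in cutting. Xrcc5, the partner of Xrcc6, had ratios of 0.512 (young) and 0.405 (old). Over all genes 16.1% of 17502 in the young and 14.96% of 17209 in the old library were over 2 times higher, counted in each library alone. The share of all genes that passed in both was not counted.

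Of 14 genes of immature and mature B cells 10 were above the limit, of 6 immunoglobulin constant genes 3, of 10 cell cycle genes 9, and of 17 markers of other cell types 2, Ptprc and Cd24a. The 3 constant genes were Igkc, Iglc2 and Iglc3. In the 54 old cells the highest cell for each gene held 14082 of 14439 Igkc, 58 of 67 Iglc2 and 35 of 45 Iglc3 UMIs. Their old levels thus rest on few cells. Kit was lower in cells with several members, at 0.302 times the level of other barcodes in the young and 0.0552 in the old library. In the old library Ighm stood at 1549 CPM in these cells and at 1949 in the others, where the 18 cells with Cd79b as their only member held 102416 of the 128891 UMIs. Ighm was found in 100% of the 54 cells and in 32.6% of other old barcodes.

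The CD24 antibody count of the cells was high wherever several members were found. In the young cells with 3 or more members the median count was 2395 (quartiles 1574 and 3518), against 88 in barcodes with none. In the old ones it was 2099 (1307 and 2956), against 93. Barcodes above a threshold placed in each library (312.8 and 396.6 counts) were called CD24+, 1573 young and 760 old. Of the cells with 3 or more members, 98.9% of young and 94.4% of old ones were CD24+, and they made up 24.0% (young) and 6.71% (old) of all CD24+ barcodes.

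The sums of the CD24+ and the CD24- barcodes of each mouse were then compared, with the mouse as a block, by edgeR's quasi-likelihood test over 16230 genes. All 9 members were higher in CD24+ sums after Benjamini-Hochberg adjustment, where 28.5% of all genes were, 4624 in number, and 4708 were lower. Only 4 sums enter, from 1 animal per age, and 1 residual degree of freedom is left. The spread is mostly borrowed across genes (54.7 prior degrees of freedom), so the p-values say little of other mice.

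Vpreb3 stood at 407 CPM in the young CD24+ sum and at 2.58 in the young CD24- sum, and at 115 and 0.935 in the old mouse. The difference was 7.40 on the log2 scale (SE 0.265, edgeR adjusted p = 3.3e-30). Cd79a stood at 165 and 1.02 in the young and 51.1 and 0.572 in the old mouse, with a log2 difference of 7.21 (SE 0.265, edgeR adjusted p = 6.7e-30). Both genes were thus far higher in the CD24+ sum of either mouse.

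Cd79b stood apart in the old mouse. It stood at 119 and 1.09 CPM in the young sums, a ratio of 109, and at 28.1 and 3.17 in the old ones, a ratio of 8.86. Its log2 difference was the lowest of the 9, 5.15 (SE 0.365, edgeR adjusted p = 2.5e-18). In the old CD24- sum, 155 of its 166 UMIs lay outside the cells with 3 or more members.

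The surrogate light chain genes were higher in both mice. Igll1 stood at 50.9 and 0.568 in the young and 29.2 and 0.153 in the old sums, a log2 difference of 7.08 (SE 0.293, edgeR adjusted p = 7.6e-28). For Vpreb1 the values were 85.8 and 1.25 in the young and 39.5 and 0.954 in the old mouse, a log2 difference of 6.01 (SE 0.255, edgeR adjusted p = 1.6e-27). Vpreb2 stood at 8.72 and 0.0812 and at 5.60 and 0.0763, a log2 difference of 6.69 (SE 0.466, edgeR adjusted p = 1.3e-18).

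The recombination genes had the fewest UMIs behind them. Rag1 stood at 8.31 and 0.0650 in the young and 4.06 and 0.0572 in the old sums, with 4 and 3 UMIs in the CD24- sums (log2 difference 6.82, SE 0.498, edgeR adjusted p = 9.0e-18). Rag2 had 97 UMIs in the young CD24+ sum and 5 in the CD24- one, and 26 and 0 in the old mouse, which is at least 31.8-fold higher with the floor at 3 UMIs over that sum. Its edgeR log2 difference of 6.53 (SE 0.613, adjusted p = 1.4e-13) depends on how that 0 is treated. Dntt stood at 28.8 and 0.536 in the young and 20.4 and 0.229 in the old mouse, a log2 difference of 6.27 (SE 0.305, edgeR adjusted p = 3.4e-25).

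The median log2 difference of the 9 was 6.69, and that of all genes tested was -0.05. By size they ranked from 18 (Vpreb3) to 131 (Cd79b) of 16230. Outside the cells with 3 or more members, which were chosen by the members themselves, the direction was mixed. Vpreb3 stood at 3.50 CPM in the young CD24+ and 1.56 in the CD24- barcodes, and Cd79b at 3.56 and 2.96 in the old ones. Igll1 was lower in CD24+ barcodes there, at 0.291 and 0.439 in the young and 0.0727 and 0.153 in the old mouse. Vpreb2 was also lower in both mice, Rag2 in the young, and Vpreb1 and Rag1 in the old mouse. The other members were higher, apart from Rag2 in the old mouse, which had 0 UMIs on both sides.

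**Figure D5:**
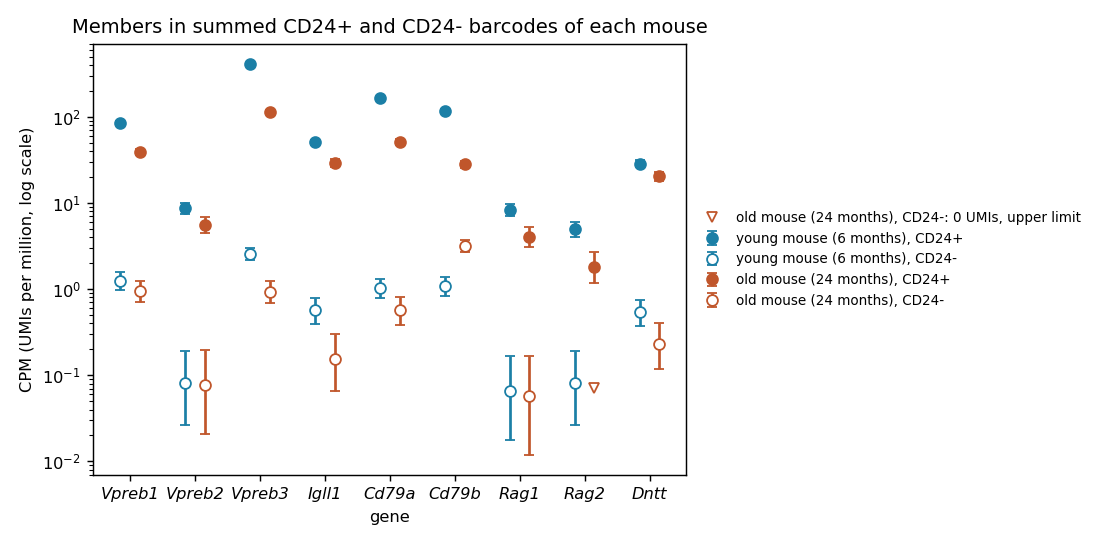
CPM of each of the 9 genes (log axis) in the CD24+ and CD24- sums of either mouse (filled and open points), with exact 95% Poisson intervals and a triangle at the upper limit for Rag2, which had 0 UMIs in the old CD24- sum. Every CD24+ point lies above the CD24- point of the same mouse, with the smallest gap for Cd79b in the old mouse (28.1 against 3.17).

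Over all genes in the same fit, 28.5% were higher and 4708 of 16230 lower, and the counts of the partner lists stand beside that. Of 12 early B lineage genes tested 9 were higher and 2 lower (Ebf1 and Foxo1), of 11 receptor signalling genes 9 and 1 (Cd81), and of 13 genes of end joining and recombination partners 9 and 0. Pax5 had a log2 difference of 6.92 (SE 0.338) and Il7r of 6.23 (SE 0.319). Xrcc6 had the second largest value of that list, 2.52 (SE 0.206), after Hmgb2 at 3.79 (SE 0.365). All 10 cell cycle genes and all 6 immunoglobulin constant genes were higher, as were 6 of 10 immature and mature B cell genes with 1 lower. Of 13 markers of other cells tested, 5 were higher, among them Alas2, Hba-a1 and Hbb-bs of red cell precursors, so the CD24+ sums also held erythroid cells. Their part in the lists' counts was not tested.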

How the data were processed

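Cells of femur and tibia from 1 mouse per age were profiled by 3′ droplet sequencing of RNA with a CD24 antibody tag. The deposited counts are UMIs per gene and antibody counts, made by the authors with Cell Ranger (6.1.1 in the file header, build mm10), in raw form. Barcodes with at least 200 genes and at most 20% mitochondrial UMIs were kept. Doublets were called with Scrublet (scanpy 1.11.5) and left in. Clusters were made in Seurat 5.3.0 from all genes except the 9 (3000 features, 30 components, resolution 0.8). A CD24 threshold was set in each library by Otsu's method. Sums of CD24+ and CD24- barcodes per mouse were compared in edgeR 4.0.16 with the mouse as a block, with DESeq2 1.42.0 as an alternative, and p-values were adjusted over all genes. In simulated data 99.5% of 200 genes changed by a log2 fold of 2 were recovered among 15929, with 14 false calls. There the same spread was set for every gene, the mice did not differ, and the changed genes were taken from those with more counts. The real sums differ in this, so these rates do not show how the test performs on them. The members and lists were chosen with earlier results of these data known. Named genes are the 9 members, the genes of the lists, and the 5 most alike by Jaccard index. Shares carry Clopper-Pearson and levels Poisson intervals at 95%. Alternatives were other thresholds, filters, depths and tools.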

Additional observations from a re-analysis of the deposited data

How the results depend on the processing

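Under every alternative run, all 9 members stayed higher in CD24+ than in CD24- sums, with log2 differences between 3.15 (Cd79b in the old mouse alone, a value with no test) and 7.58. Without the mouse as a replicate block, all 9 passed too, at log2 differences of 5.34 to 7.42, with an edgeR adjusted p of at most 0.0097 and 4323 genes higher and 3789 lower in all. DESeq2 called 3718 and 3236. Without the old mouse 9 and without the young mouse 8 members had a ratio, since Rag2 had 0 old CD24- UMIs. The share of young cells with several members moved from 3.80% to 2.61% with 4 or more members and to 3.40% of all deposited barcodes. Leaving out the shared barcodes, chosen after seeing the data, gave 3.77% and 0.966%. Counted per kept barcode, 4 members had an old-to-young ratio below 0.5 (1.83% of all genes), and over all deposited barcodes 7. Requiring 50 UMIs put 1.67% of genes below it. Co-detection moved with the number of UMIs required and with thinning. With at least 2 UMIs of a gene, Cd79a and Cd79b shared 83.2% of young and 61.0% of old cells with either, Vpreb1 and Igll1 74.4% and 58.1%, and Rag1 and Rag2 10.6% of young ones. Thinned to 2000 UMIs, Vpreb1 and Igll1 shared 52.9% and 57.0%, and old Cd79a and Cd79b 59.1%. The cause was not tested. Depth limits Rag1, Rag2 and Vpreb2, which have the fewest UMIs, and 1 mouse per age leaves the spread between animals unmeasured.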

Other observations

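In the old library 18 cells of the B-lineage-like clusters held Cd79b and none of the other 8 members, a group chosen after its values were seen. They had 112 Cd79b UMIs, a median of 6 per cell and 12 at most, in cells with a median of 58538 UMIs. Igkc, the kappa light chain, was found in all 18 at a median of 18691 UMIs per cell, and Ighm, the mu heavy chain, at a median of 5580. Xbp1, the transcription factor of secreting cells, was in 18 of 18, the joining chain Jchain in 13 and the chaperone Mzb1 in 9. Pax5, Il7r and H2-Aa had no UMI in the 18 cells (which limits the share of cells with a UMI to 16.7%), and Ms4a1 was in 1. Cd74, the class II invariant chain, was in 18 of 18 at a median of 172.5 UMIs. Their CD24 antibody count had a median of 163, against 2099 in the old cells with 3 or more members. The young library had 2 cells with Cd79b alone in these clusters, at a median of 1928 UMIs and with no UMI of Jchain or Xbp1.

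A single old cell with 3 or more members held 14082 of the 14439 Igkc UMIs of those 54 cells, which is why Igkc was given as a share of cells in the 3 sets. Its level still entered the list counts.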
